A study of Mus musculus with 6 samples.

Results

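The genes described here are 36 genes of myelin and of mature oligodendrocytes, the glial cells that wrap axons of the brain in myelin. They were taken by name from a list of such genes, with no cut on a value in these data. Earlier results of these data were known when the genes were chosen. All 36 were found among the 54658 genes that the count tables list. They lie on 16 chromosomes. RNA came from frozen nucleus accumbens, a part of the ventral striatum, of male C57BL6 mice aged 8 weeks. The Gas5 group (3 libraries, lettered A, B and C) had received a herpes simplex virus p1005+ vector that carries Gas5, a long noncoding RNA, and EGFP, and the GFP group (3 libraries, lettered likewise) had received that vector with EGFP alone. Both groups thus carry the vector, the surgery and EGFP. The labels do not say which cells took up the vector, how long after injection the tissue was taken, or whether animals were pooled. The p-values here therefore weigh the difference between the groups against the variation among these samples, whatever each one is.

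Myelin is a spiral of oligodendrocyte membrane rich in cholesterol and galactolipids. A few proteins, among them myelin basic protein, compact its layers, and others hold it to the axon beside the node of Ranvier. The transcription factors Sox10 and Myrf drive these genes when an oligodendrocyte matures. In the striatum the myelin lies largely in bundles of axons that cross the grey matter, many of which come from the cortex. Several of the 36 genes are not made by oligodendrocytes alone: neurons also make Nfasc and Cntn2, and fibroblasts also make Apod.

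The libraries held between 32359052 and 56081575 counts, and the 36 genes took between 0.261% and 0.32% of them. Counts cover the whole span of a gene, introns included, and leave out every stretch where listed genes overlap. Of the 36 genes, 20 shared no span with another gene. The 3 that shared the most were Trf (99.5%, with Gm20425), Qdpr (97.1%, with Gm42413) and Cnp (53.0%, with Dnajc7), and they were measured on the remainder. Trf, which encodes transferrin, had counts of 2, 0 and 1 across Gas5 A to C, against 4, 1 and 2 across GFP A to C, and was not tested, so 35 genes were. Gas5 itself averaged 23.2 ± 0.545 CPM (SD, n = 3) with the Gas5 vector and 17.8 ± 1.15 CPM without it, and the groups did not overlap. CPM are counts scaled to the size of each library, here with TMM factors.

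Most of these genes read lower in the Gas5 libraries by a small amount. Of the 35 tested, 32 had a negative and 3 a positive log2 fold change (Gas5 minus GFP), and the value was negative for 45.8% of all 17563 genes tested. Their median was -0.22, which is -14.3%, and the median of all tested genes was 0.02. At an adjusted p under 0.05 in edgeR's quasi-likelihood test, 2 of the 35 fell, Cntn2 and Aspa, where 3.96% of all tested genes were lower. The 2 that rose were Apod and Klk6, where 1.48% of all tested genes were higher. The other 30 genes with a negative value did not pass, with log2 fold changes from -0.39 to -0.02 and a smallest adjusted p of 0.0745.

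Beyond the called genes, low values ran through most of the list. At an unadjusted p under 0.05, 26 of the 35 were lower and 2 higher, where 11.2% and 10.2% of all tested genes were. All 3 Gas5 libraries lay below all 3 GFP libraries for 22 of the 35 (13.9% of all tested genes) and above them for 2 (13.8%). Summed over the 36 genes, the level was 2492, 2710 and 2904 CPM across Gas5 A to C, against 3198, 3018 and 3258 CPM across GFP A to C. The groups did not overlap, and the ratio of the means was 0.856, or 0.88 when Mbp, the most counted of the genes, was left out. In bulk tissue, fewer oligodendrocytes and less RNA per oligodendrocyte cannot be told apart.

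The Gas5 libraries did not move evenly. Gas5 A held the lowest of the 6 values for 21 of the 35 genes, Gas5 B for 7 and Gas5 C for 4, while GFP C held the highest for 17 and GFP A for 10. The median coefficient of variation was 8.90% among Gas5 libraries and 6.02% among GFP libraries. It was larger in the Gas5 group for 25 of the 35 genes, and for 59.5% of all tested genes.

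**Figure D1:**
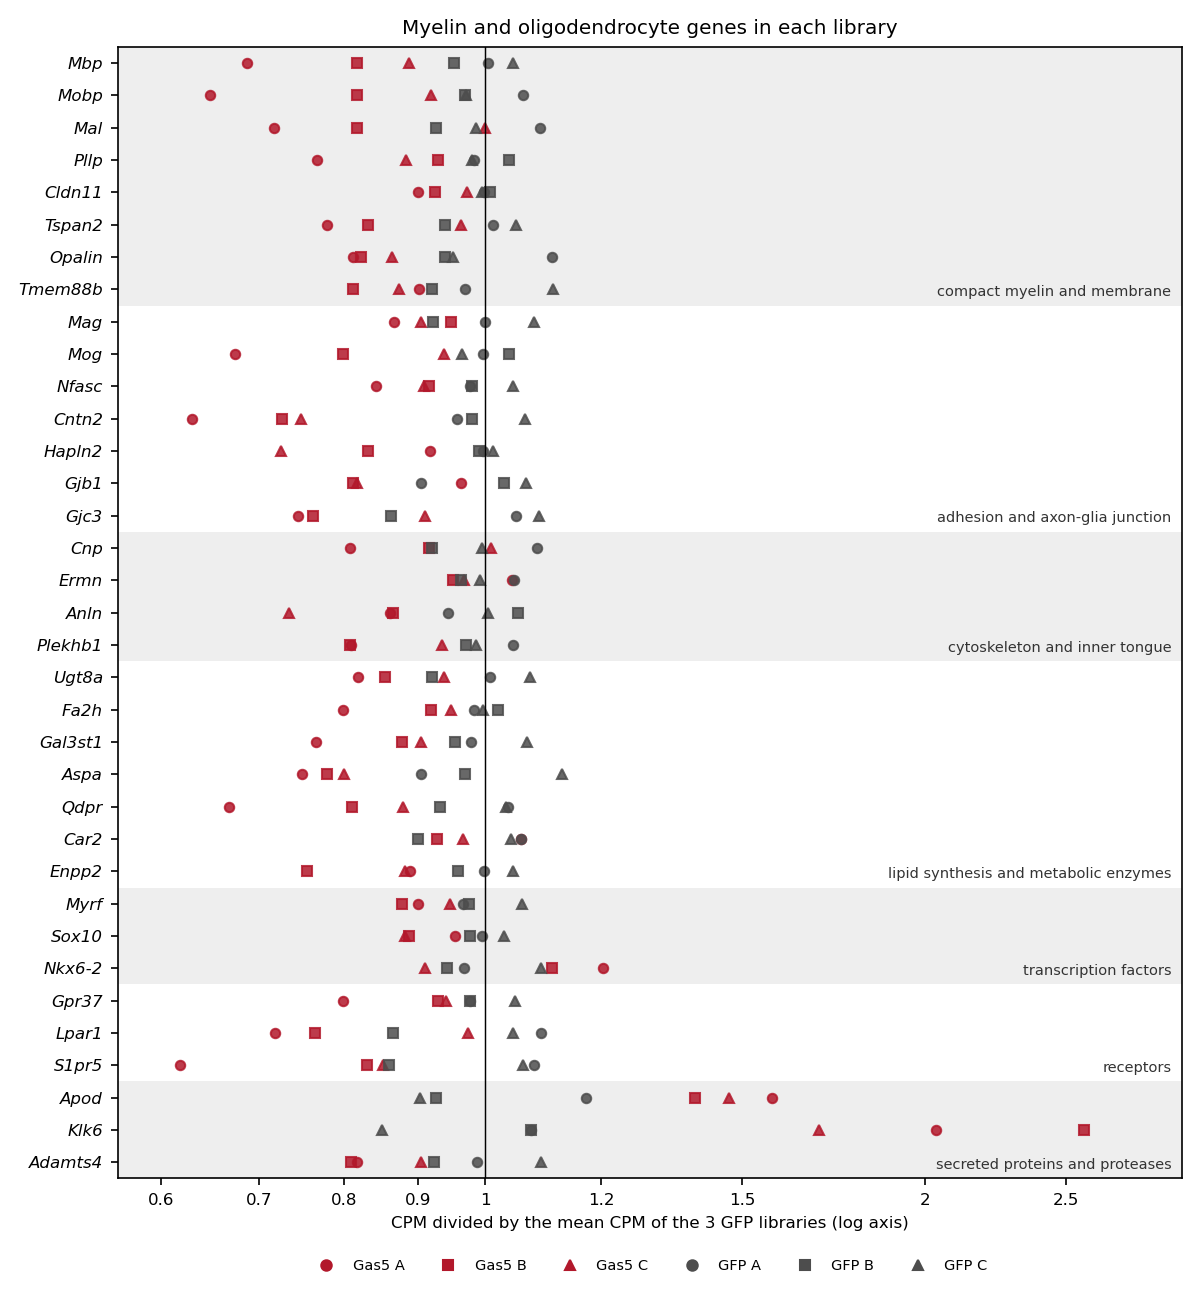
Level of each of the 35 tested genes in each library, as CPM divided by the mean CPM of the 3 GFP libraries on a log axis, with genes grouped by role. Most Gas5 points (red) lie left of 1, Gas5 A is often the leftmost, and those of Apod and Klk6 lie to the right.

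**Figure D2:**
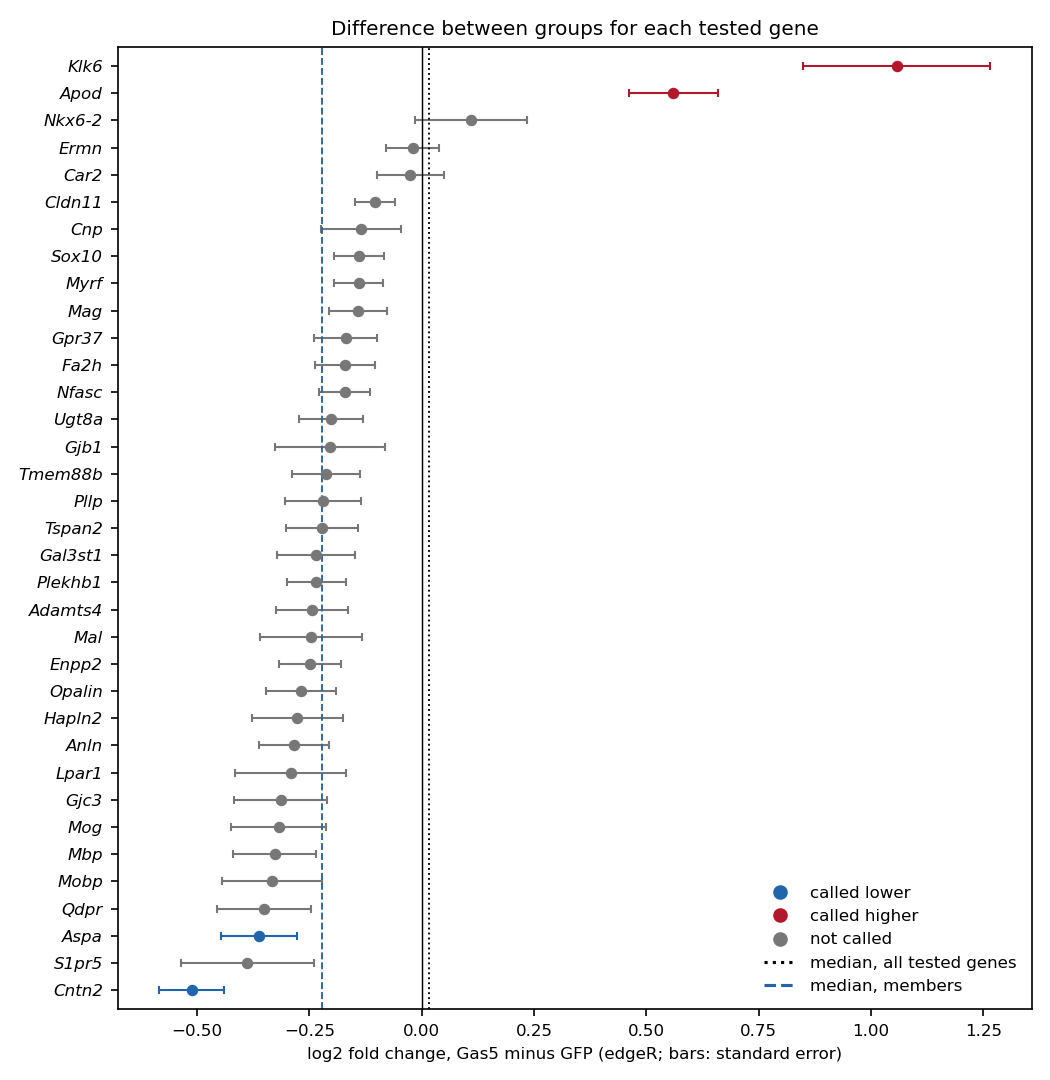
Log2 fold change, Gas5 minus GFP, of the 35 tested genes with its standard error, in order of size. The values of 32 genes are negative, the dashed line marks the median of -0.22 and the dotted line the median of all tested genes at 0.02.

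Since most of the genes read lower together and Apod and Klk6 rose, their promoters were compared in the letters that oligodendrocyte factors are known to bind. RefSeq windows of 250 bases before the start of transcription (build GRCm38.p6, the build of the counts) were found for 28 of the 36 genes, 41 windows in all. The letters CTGGCAC or CTGGTAC, of the kind bound by MYRF, were sought on both strands and stood in 7 of the 41 windows (17.1%), from 6 genes: Cnp, Hapln2, Lpar1, Mag, Mog and S1pr5. Of all 32851 windows, 5.93% held them. The letters ACAAAG or ACAATG, of the kind bound by SOX factors, stood in 18 windows (43.9%) from 14 genes, and in 25.2% of all windows. The 2 motifs have no word in common. The TATA box TATAAA stood in 2 windows (4.88%), those of Aspa and Gjb1, and in 12.4% of all windows. These are matches of letters, not sites shown to be bound, and windows of 1 gene can overlap.

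Sequences are shown for the pair of genes that rose and for a pair of myelin genes that hold the MYRF-type letters, each read 5′ to 3′ on the strand of the gene. Capitals mark the MYRF-type and SOX-type letters on either strand. Klk6 (chr7:43824294-43824498, plus strand, the bases outside the counted span) holds 2 SOX-type matches, at positions -193 and -121, where -1 is the base before the start. Apod (chr16:31314809-31315058, minus strand) holds 1 SOX-type match at -84. Mag (chr7:30914923-30915172, minus strand) holds a SOX-type match at -67 and a MYRF-type match at -9. In an overlapping Mag window, before another start, the same letters stand at -126 and -68, so these positions depend on the start used. Mog (chr17:37023399-37023648, minus strand) holds 1 MYRF-type match at -83. Neither gene that rose had the MYRF-type letters in this window, and neither did Aspa, which fell. Since 6 of the 28 genes with a window held these letters, lacking them does not set the genes that rose apart. It says nothing of the factor itself. Mag and Mog were chosen for holding the letters, and neither passed the test described above.
Klk6: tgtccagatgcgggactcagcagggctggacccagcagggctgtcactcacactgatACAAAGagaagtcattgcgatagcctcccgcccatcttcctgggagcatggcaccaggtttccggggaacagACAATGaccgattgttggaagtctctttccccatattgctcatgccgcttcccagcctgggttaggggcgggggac
Apod: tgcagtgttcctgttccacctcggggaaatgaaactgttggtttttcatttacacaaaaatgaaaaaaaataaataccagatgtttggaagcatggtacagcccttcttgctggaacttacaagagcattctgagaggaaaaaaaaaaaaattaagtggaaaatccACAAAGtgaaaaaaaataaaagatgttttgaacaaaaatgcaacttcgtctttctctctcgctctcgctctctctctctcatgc
Mag: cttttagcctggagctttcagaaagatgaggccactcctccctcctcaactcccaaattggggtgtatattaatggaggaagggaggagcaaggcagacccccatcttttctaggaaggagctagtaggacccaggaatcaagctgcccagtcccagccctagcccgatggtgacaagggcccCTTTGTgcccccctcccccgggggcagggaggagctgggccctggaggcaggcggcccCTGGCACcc
Mog: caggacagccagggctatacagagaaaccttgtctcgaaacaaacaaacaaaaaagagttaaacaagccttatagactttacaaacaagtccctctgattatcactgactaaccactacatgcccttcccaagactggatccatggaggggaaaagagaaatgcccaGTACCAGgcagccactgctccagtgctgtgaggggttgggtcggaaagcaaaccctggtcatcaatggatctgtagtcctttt

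The proteins of compact myelin and its membrane were the most counted group, and none of the 8 passed the test. All 8 had negative log2 fold changes, from -0.33 to -0.10 with a median of -0.23. In 6 of them the groups did not overlap, where all Gas5 libraries lay below all GFP libraries for 13.9% of all tested genes. Their summed level was 0.815 of that in the GFP group. Mbp, which encodes myelin basic protein, stood at 637, 757 and 822 CPM across Gas5 A to C, against 930, 881 and 967 CPM across GFP A to C. Each Gas5 library was below each GFP library, and Gas5 A was the lowest. Mbp had a log2 fold change of -0.33 (SE 0.0931, edgeR adjusted p 0.0838). Mobp, another basic protein of the compact layers, had the same value of -0.33 (adjusted p 0.129).

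The other genes of that group spanned a range of sizes. Mal, a raft protein that sorts membrane to myelin, had a log2 fold change of -0.25. Opalin, a sialylated membrane protein of oligodendrocytes, had -0.27 and an adjusted p of 0.0873. Cldn11, the claudin of the tight junctions between myelin layers, had the smallest difference, -0.10 (SE 0.0447). Values for the tetraspanin gene Tspan2, for Tmem88b and for the plasmolipin gene Pllp were -0.22, -0.21 and -0.22. Pllp shared 21.3% of its span with other genes.

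Among the genes of adhesion and of the junction between glia and axon, Cntn2 fell and the other 6 of 7 did not pass. Cntn2 encodes contactin 2, an adhesion protein of the juxtaparanode that holds axonal potassium channels in place and is made on both the glial and the axonal side. It stood at 74.3, 85.5 and 88.1 CPM across Gas5 A to C, against 113, 116 and 125 CPM across GFP A to C. The groups did not overlap, and the gap between them was wider than the spread within either. Cntn2 had a log2 fold change of -0.51 (SE 0.0722, edgeR adjusted p 0.0104), which is 1.43-fold lower in the Gas5 group. Cntn2 lies on chromosome 1 from 132509427 to 132543256 on the minus strand and shares none of its span. The call was lost without GFP B (adjusted p 0.0518), without GFP C (0.0566), and when the score of cortical markers described below was in the model (log2 fold change -0.08, adjusted p 0.9998).

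Nfasc lies 21433 bases from Cntn2 and encodes neurofascin, whose glial form anchors the paranode and whose neuronal form sits at the node. Its log2 fold change was -0.17 with an adjusted p of 0.127, and its groups did not overlap. Mag, which binds the axon from the innermost myelin layer, had -0.14, and Mog, on the outer face of the sheath, had -0.32 with an adjusted p of 0.126. Hapln2, a link protein of the matrix at the node, had -0.28. The connexin genes Gjb1 and Gjc3 had -0.20 and -0.31, and in both the groups overlapped. Across the group of 7 the median was -0.28 and the summed level was 0.854 of that in the GFP group.

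The 4 genes of the cytoskeleton and inner tongue of the sheath had negative values, and none passed the test. The smallest p was that of Anln, which encodes anillin, an actin-binding and septin-binding protein. Anln stood at 20.9, 21.0 and 17.8 CPM across Gas5 A to C, against 22.9, 25.6 and 24.4 CPM across GFP A to C. The groups did not overlap, and here Gas5 C and not Gas5 A was lowest. Anln had a log2 fold change of -0.28 (SE 0.0780, edgeR adjusted p 0.0745). Plekhb1, a membrane protein with a pleckstrin homology domain, had -0.23 (adjusted p 0.0787), and Cnp, the cyclic nucleotide phosphodiesterase that keeps cytoplasmic channels in myelin open, had -0.14. Ermn, an actin-binding protein of late oligodendrocytes, had -0.02 (SE 0.0594), and its groups overlapped.

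Of the 7 lipid and metabolic enzymes, Aspa fell and 6 did not pass. Aspa encodes aspartoacylase, which splits the neuronal metabolite N-acetylaspartate and so yields acetate in oligodendrocytes. It stood at 17.6, 18.3 and 18.8 CPM across Gas5 A to C, against 21.2, 22.7 and 26.4 CPM across GFP A to C. The Gas5 libraries were close to each other, the GFP libraries were more spread, and the groups did not overlap. Aspa had a log2 fold change of -0.36 (SE 0.0845, edgeR adjusted p 0.0467), which is 1.28-fold lower in the Gas5 group. Aspa lies on chromosome 11 from 73304992 to 73329596 on the minus strand. Its call held when GFP A was left out (adjusted p 0.0320), was lost when any other library was left out (adjusted p from 0.0750 to 0.137), under upper quartile scaling (adjusted p 0.0543) and by limma-voom (0.0576), and with the score of cortical markers in the model (log2 fold change -0.01, adjusted p 0.9998).

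The 3 enzymes of galactolipid synthesis had similar values: -0.20 for Ugt8a, which makes galactosylceramide, -0.17 for Fa2h, which hydroxylates its fatty acid, and -0.23 for Gal3st1, which adds sulfate to form sulfatide. Qdpr, which recycles tetrahydrobiopterin, had -0.35 (adjusted p 0.0976), on the small part of its span that no other gene shares. Enpp2 encodes autotaxin, the enzyme that makes lysophosphatidic acid, and had -0.25 with an adjusted p of 0.0788. Car2, a carbonic anhydrase of oligodendrocytes, had -0.03 (SE 0.0746), and its groups overlapped. The summed level of the 7 was 0.871 of that in the GFP group.

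The transcription factors had smaller values than most of the genes above, and none of the 3 passed the test. Myrf, which encodes the factor required for the myelin program, stood at 42.9, 41.8 and 45.1 CPM across Gas5 A to C, against 46.1, 46.6 and 50.6 CPM across GFP A to C. The groups did not overlap, though Gas5 C and GFP A were close. Myrf had a log2 fold change of -0.14 (SE 0.0543, edgeR adjusted p 0.181). Sox10, which defines the oligodendrocyte lineage, also had -0.14, with no overlap of the groups. Nkx6-2, a homeobox factor of late oligodendrocytes, had 0.11 (SE 0.125), and its groups overlapped.

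The 3 receptors had negative values that did not pass. S1pr5, the oligodendrocyte receptor for sphingosine 1-phosphate, stood at 4.11, 5.52 and 5.65 CPM across Gas5 A to C, against 7.18, 5.71 and 7.05 CPM across GFP A to C. The groups did not overlap, but Gas5 C and GFP B were nearly level. Its log2 fold change of -0.39 (SE 0.147, edgeR adjusted p 0.172) was the largest negative value after that of Cntn2. Lpar1, a receptor for the lysophosphatidic acid that Enpp2 makes, had -0.29, and Gpr37, an orphan receptor that restrains myelination, had -0.17.

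The secreted proteins went both ways. Apod and Klk6 rose, Adamts4 had a negative value and Trf was not tested. Apod encodes apolipoprotein D, a lipid-binding lipocalin made by oligodendrocytes and by fibroblasts. It stood at 98.8, 87.5 and 92.2 CPM across Gas5 A to C, against 73.6, 58.2 and 56.7 CPM across GFP A to C. The groups did not overlap, and Gas5 A, which was lowest for most genes of the list, was the highest here. Apod had a log2 fold change of 0.56 (SE 0.0983, edgeR adjusted p 0.0188), which is 1.47-fold higher in the Gas5 group. Apod lies on chromosome 16 from 31296192 to 31314808 on the minus strand.

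Klk6 encodes kallikrein 6, a secreted serine protease of oligodendrocytes. Klk6 stood at 2.11, 2.67 and 1.75 CPM across Gas5 A to C (91, 114 and 68 counts), against 1.12, 1.12 and 0.881 CPM across GFP A to C (62, 43 and 28 counts). The groups did not overlap, and Klk6 had the fewest counts and the largest SE of the 35 tested genes. Klk6 had a log2 fold change of 1.06 (SE 0.209, edgeR adjusted p 0.0278), which is 2.08-fold higher in the Gas5 group. Klk6 lies on chromosome 7 from 43824499 to 43832030 on the plus strand. Adamts4, a metalloprotease of mature oligodendrocytes, had a log2 fold change of -0.24, with no overlap of the groups.

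Both calls were lost in some of the fits that left out 1 library. Apod lost its call without GFP B (adjusted p 0.0934) or GFP C (0.0932). Klk6 lost its call without Gas5 B (adjusted p 0.0547), GFP A (0.0548), GFP B (0.102) or GFP C (0.123). Few genes passed at all without GFP B or GFP C. Of all tested genes, 0.0223% and 0.0336% were then called higher, against 1.48% with all 6 libraries. The losses without GFP B or GFP C are thus not particular to Apod and Klk6. Without Gas5 B and without GFP A, 251 and 236 of all tested genes were called higher, against 260 with all 6 libraries. The losses of Klk6 in those fits had no such general loss of calls beside them. With the score of cortical markers in the model, the log2 fold change was 0.04 for Apod and 0.84 for Klk6, the latter with SE 0.587, and the adjusted p was 0.9998 for both.

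The called genes were also set against the rest of the list, with each library scaled by its summed counts of the 36 genes. Apod made up 3.97%, 3.23% and 3.18% of that sum across Gas5 A to C, against 2.30%, 1.93% and 1.74% across GFP A to C. The shares of the groups did not overlap. On that scale the log2 fold change was 0.79 for Apod (edgeR adjusted p 2.6e-06), 1.29 for Klk6 (adjusted p 0.000341) and -0.29 for Cntn2 (adjusted p 0.0238), while Aspa was not called (-0.13, adjusted p 0.336). This scaling moves the median of all tested genes from 0.02 to 0.24, because the sum is itself lower in the Gas5 libraries. It therefore compares these genes with the list and not with the transcriptome. The 4 genes were picked by their calls in the same libraries, so its p-values are no further support for those calls. Mbp made up 27.3% of the sum on average with the Gas5 vector and 29.3% without it.

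**Figure D3:**
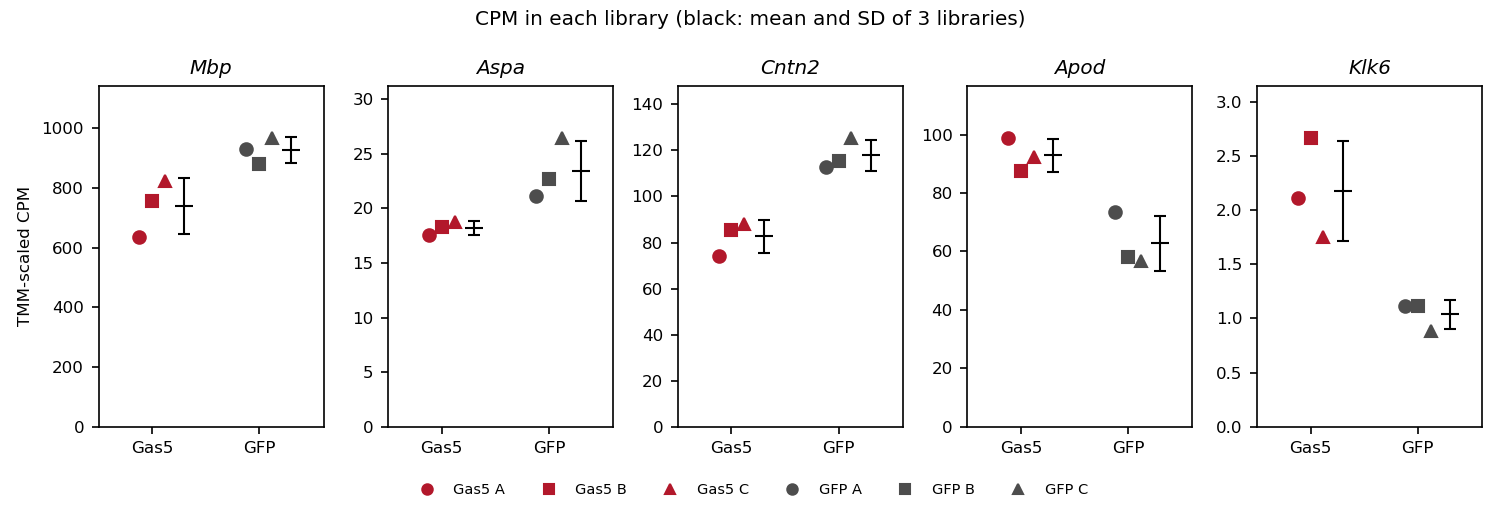
CPM of Mbp, Aspa, Cntn2, Apod and Klk6 in each library, with the mean and SD of each group of 3 in black and an axis from 0. The groups do not overlap in any of the 5 panels, and Mbp did not pass the test.

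Levels between genes can be compared per length. In the GFP group, per kilobase of counted exon, Mbp was highest at 109 CPM, followed by Cnp at 49.8, Cldn11 at 46.9, Mal at 40.9 and Nfasc at 36.5. Klk6 was the lowest tested gene at 0.686 CPM per kilobase of counted exon, and Apod stood at 24.4. Intronic reads enter these values, so genes with long introns read high on this scale. Per kilobase of counted span, the order began with Qdpr at 28.8 CPM, Cnp at 20.005, Tmem88b at 8.84 and Mbp at 8.42. The values of Qdpr and Cnp rest on the parts of their span that no other gene shares.

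Other genes of the lineage gave a partly similar picture. Of 38 further genes known from mature oligodendrocytes, 35 were tested, 7 fell and 0 rose at an edgeR adjusted p under 0.05, with 14 lower and 1 higher at an unadjusted p under 0.05. Of all tested genes, 3.96% were lower and 1.48% higher at that adjusted p. DESeq2 called 1 of them higher. The 7 calls became 0 without GFP B, without GFP C and with the score of cortical markers in the model. A fit restricted to genes that share no span called 2 lower. Pex5l, Zfp536, Ninj2, Elovl7 and Tppp share some span and were not in that fit, so it did not test their calls. Their median log2 fold change was -0.15. The smallest p-values were those of Pex5l, a peroxisomal receptor-like protein also made in neurons, with a log2 fold change of -0.50 (adjusted p 0.0161), and of the zinc finger gene Zfp536, with -0.52 (adjusted p 0.0187). Also lower were Ninj2, Sec14l5, Elovl7, Tppp and Kndc1, with log2 fold changes from -0.48 to -0.21, named because they complete the 7.

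Genes of precursors and newly formed oligodendrocytes were centred near 0. Of 18, 17 were tested, 2 fell and 0 rose by edgeR, where 3.96% of all tested genes were lower and 1.48% higher. At an unadjusted p under 0.05, 4 were lower and 3 higher, where 11.2% and 10.2% of all tested genes were. The median was 0.02. The 2 that fell were Tmem163, a zinc transporter gene, with a log2 fold change of -1.11 (adjusted p 0.0118), and Rras2, a small GTPase gene, with -0.54 (adjusted p 0.0163). Both are also made in neurons. The difference between the early and the mature list was not tested.

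Genes listed for axons and nodes were also mostly lower. The axon list is not specific to myelinated axons, and bulk tissue does not show which cells its RNA came from. Of its 8 genes, 7 were tested, 4 fell and 0 rose by edgeR, where 3.96% of all tested genes were lower and 1.48% higher. At an unadjusted p under 0.05, 0 were higher, and the median was -0.39. Stmn2, a microtubule regulator, had -0.58 (adjusted p 0.00600), Kif5a, a kinesin of axonal transport, had -0.59 (adjusted p 0.01001), and Tubb4a and Thy1 also fell. Of 16 neuronal genes of the node, paranode and juxtaparanode, 2 fell and 0 rose by edgeR, again with 0 higher at an unadjusted p under 0.05, and the median was -0.15. These were the sodium channel gene Scn1a, with -0.32 (adjusted p 0.0427), and the adhesion gene Nrcam, with -0.22 (adjusted p 0.0483). DESeq2 called 0 genes of either list higher. Cntnap1, the axonal partner of glial neurofascin, was named after its value was seen and had -0.49 with an adjusted p of 0.0528.

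Markers of cortical excitatory neurons were also lower in the Gas5 libraries, with a median below the value of any of the 36 genes. Of 12 such markers, 8 fell by edgeR, where 3.96% of all tested genes were lower. Among them were Tbr1 (log2 fold change -2.62, adjusted p 0.00642) and Nrn1 (-2.83, adjusted p 0.00642), while Rorb fell less (-0.45). Cux2 (-0.01) and Lamp5 (0.10) were not called, and their groups overlapped. The median log2 fold change of the 12 was -2.45. Summed over the 12, the level was 190, 248 and 245 CPM across Gas5 A to C, against 415, 530 and 557 CPM across GFP A to C. A score, the mean log2 CPM of the 12, averaged 2.35 ± 0.438 (SD, n = 3) over Gas5 A to C and 3.95 ± 0.297 over GFP A to C. Gas5 A was lowest and GFP C highest, and the groups did not overlap. With the score as a covariate, 0 of the 35 genes were called in either direction, 1 was at an unadjusted p under 0.05, 17 were negative and the median was 0.00. In that fit 0 of all 17563 genes were called and 378 were at an unadjusted p under 0.05. Since the score separates the groups, the vector and the amount of cortical neuron RNA cannot be told apart here.

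Other cell types moved less. Of 12 markers of medium spiny neurons, the main neurons of the accumbens, 0 were called by edgeR, with 1 lower and 1 higher at an unadjusted p under 0.05, and their sum ranged from 4886 to 6292 CPM in the Gas5 group and from 5821 to 6601 CPM in the GFP group. The smallest p-values were those of Pdyn (0.37, adjusted p 0.0551) and Bcl11b (-0.16, adjusted p 0.230). Of 8 endothelial markers 1 fell, Flt1 (-0.20, adjusted p 0.0300), with Slco1a4 next (-0.18, adjusted p 0.102), while 5 of the 8 had positive values and the median was 0.01. Of 6 Schwann cell markers, which would come from peripheral myelin, 4 were tested and 0 called, with 0 at an unadjusted p under 0.05. Of these, Prx had -0.16 with an adjusted p of 0.691.

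In 4 other marker lists few genes passed the test, each of them higher as Apod and Klk6 were, and the part of these lists in those 2 results was not tested. All 9 tested microglial markers had positive values and 0 were called by edgeR, led by C1qa (0.35, adjusted p 0.0502) and Aif1 (0.55, adjusted p 0.0675). At an unadjusted p under 0.05, 6 of the 9 were higher, where 10.2% of all tested genes were. The sum of the microglial list ranged from 305 to 333 CPM among Gas5 libraries and from 261 to 295 CPM in the GFP group. Of 9 tested astrocyte markers Aqp4 rose (0.38, adjusted p 0.0486) and Aldh1l1 had 0.43 (adjusted p 0.0806). At an unadjusted p under 0.05, 4 astrocyte markers were higher and 0 lower. Negative values were found for 3 of the 9, and the summed level of the list was 0.914 of that in the GFP group. Of 3 tested ependymal markers Rsph1 rose (0.86, adjusted p 0.0293) and Ak7 had 0.58 (adjusted p 0.1003). Of 6 tested choroid plexus markers Kl rose (0.97, adjusted p 0.0200) and Clic6 had 0.20 (adjusted p 0.4004), while 2 of the 6 had negative values.

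Leptomeningeal fibroblasts also make Apod, and a list of 8 of their markers was added after the values of Apod were seen. Of these, 6 were tested and 0 called by edgeR, and the median was 0.53. At an unadjusted p under 0.05, 3 were higher, where 10.2% of all tested genes were. Col1a1 had 0.50 (adjusted p 0.0849) and Dcn had 0.56 (adjusted p 0.115). The summed level was 34.3, 22.8 and 24.7 CPM across Gas5 A to C, against 19.0, 19.1 and 23.5 CPM across GFP A to C, so the groups overlapped and Gas5 A, which was also highest for Apod, was highest. Defining markers at 0 in every library were Igf2 and Ogn here, Gfap among astrocytes, P2ry12 among microglia, Kcnj13 for the choroid plexus and Pmp2 for Schwann cells. All or nearly all of the span of each of these is shared with another gene, so a 0 says nothing of expression.

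**Figure D4:**
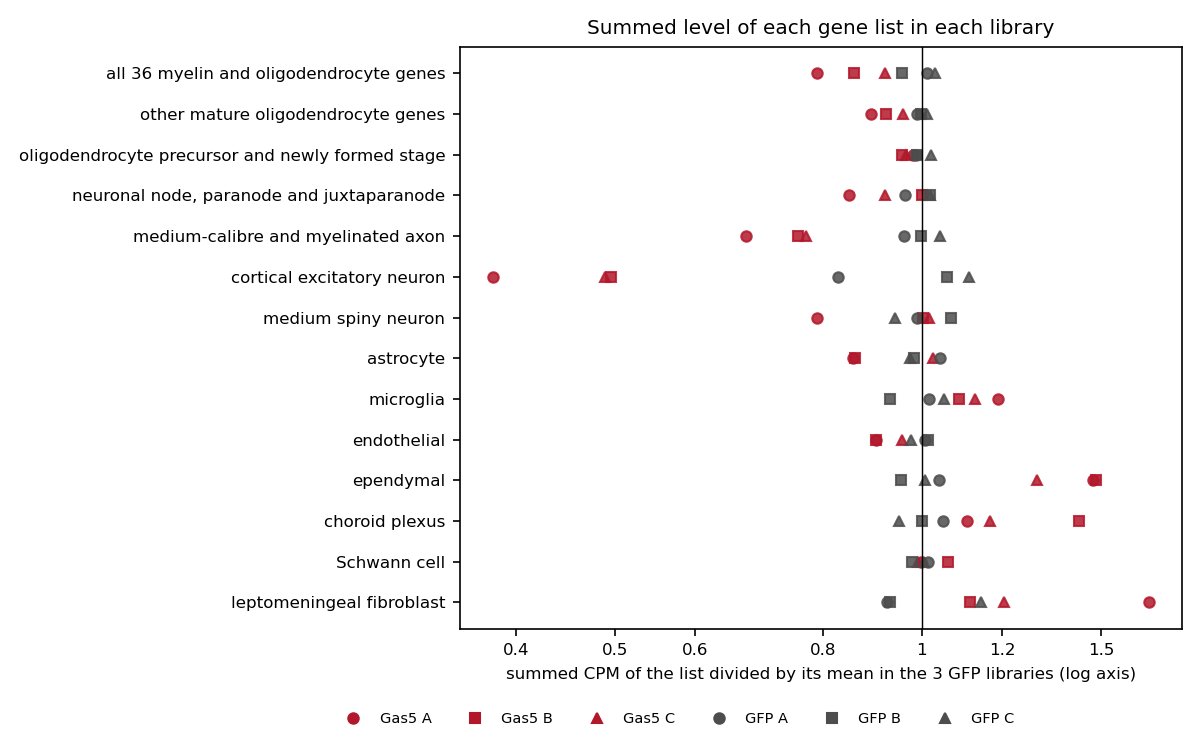
Summed CPM of each gene list in each library, divided by its mean in the 3 GFP libraries, on a log axis. The cortical excitatory neuron list shows the widest gap between the groups, from 190 CPM in Gas5 A to 557 CPM in GFP C, and the Gas5 points of the 36 genes all lie below the GFP points.

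The number of calls depended on the tool and on which libraries were used. DESeq2 called 7 of the 35 genes lower and 2 higher, where it called 5.67% and 2.82% of all tested genes. With no expression filter, 10 were called lower and 2 higher, against 3.5% and 2.29% of all genes. The calls that DESeq2 added were Mbp, Mobp, Anln, Plekhb1 and Enpp2, and the fit without a filter added these and Mog, Gjc3 and Qdpr. Without GFP B and without GFP C, 0 of the genes were called in either direction by edgeR, with 24 and 13 at an unadjusted p under 0.05. The calls over all genes were then 0.62% lower and 0.0223% higher without GFP B, and 0.565% lower and 0.0336% higher without GFP C. The median log2 fold change of the 35 stayed between -0.26 and -0.18 whichever library was left out.

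**Figure D5:**
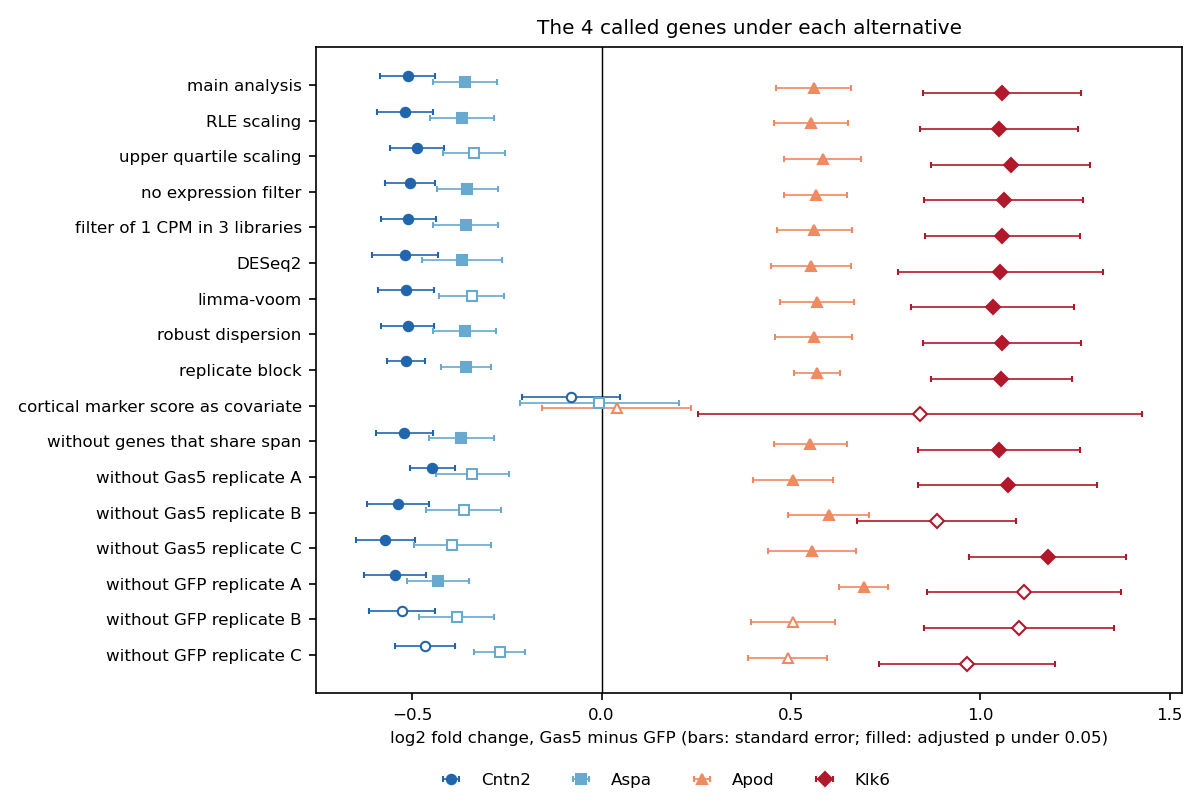
Log2 fold change with its standard error of the 4 called genes, Cntn2, Aspa, Apod and Klk6, under each alternative, with filled points for an adjusted p under 0.05. The points keep their side of 0 in each alternative shown, and with the score of cortical markers as covariate Cntn2, Aspa and Apod lie near 0 and none of the 4 is called.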

How the data were processed

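Total RNA of 6 nucleus accumbens samples was depleted of ribosomal RNA and made into strand-marking libraries, per the labels' protocols. Alignment and counting tools in the submitters' processing notes are STAR 2.7.0 and featureCounts 1.5.0-p3, beside the build GRCm38.p6. The values the authors deposited are raw counts per gene, in whole numbers with no normalization. No source used here gives the annotation release, the strand setting or how overlaps were handled. The length column equals the whole gene span, so introns were counted, and genes were matched by coordinates to GENCODE M21 of the same build. Strand does not appear to have been used, so antisense reads cannot be told apart.

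The fit used edgeR 4.0.16 in R 4.3.3 (default expression filter, leaving 17563 genes, TMM scaling, quasi-likelihood F-test across all 6 libraries, 2-sided, Benjamini-Hochberg adjustment over all genes tested, threshold 0.05). Standard errors (SE) are the size of the log2 fold change over the root of F. The common biological coefficient of variation was 8.28%. Libraries of a group differed beyond sampling noise (chi-square per degree of freedom 5.13 to 25.2), and each counted as 1 replicate. An exact permutation test of 3 against 3 cannot go below p = 0.1. The cortical marker score used a pseudocount of 0.5 CPM. Alternatives used limma 3.58.1 and DESeq2 1.42.0.

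The genes and lists were chosen with earlier results of these data known. Values in every library are given for called genes, for the smallest p in each role group and for the largest fold changes in either direction, and the 2 smallest p-values are named in each other list. Values of 1 gene named by this choice are not reported here.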

Additional observations from a re-analysis of the deposited data

How the results depend on the processing

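The counts of calls were the least stable values. At an edgeR adjusted p under 0.1, 8 of the 35 genes were called lower, and under 0.01, 0 were called lower and 0 higher. The share of all tested genes at these thresholds was not counted. Upper quartile scaling and limma-voom each called 1 lower, no expression filter 10 and DESeq2 7. Leaving out each library in turn gave 0 to 5 lower and 0 to 2 higher. Over all tested genes these fits gave 101 to 611 lower and 4 to 251 higher, against 695 and 260. All genes called higher numbered 656 with no filter and 495 by DESeq2. The fit without genes that share span kept 8594 genes, of which 300 were lower and 119 higher. Tmem163, Rras2, Scn1a and Nrcam share some span and were not in it, so a smaller list count there does not mean lost calls. With the cortical marker score as covariate, 0 genes of any list were called. Of the further mature oligodendrocyte genes, 7 were lower, 2 without genes that share span, 0 to 6 with a library left out; 0 to 1 were higher, with 1 under no filter and 1 by DESeq2. Of the precursor genes, 2 were lower, 0 without shared span, 0 to 3 with a library left out; 0 to 1 were higher, with 1 under no filter. Of the node genes, 2 were lower, 0 under upper quartile scaling, 7 with no filter, 7 by DESeq2, 1 with robust dispersion, 0 without shared span and 0 to 3 with a library left out. Of the axon genes, 1 to 4 were lower with a library left out.

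Whether the letters A, B and C pair the libraries was not settled: deviations of libraries with the same letter correlated at 0.16 (A), 0.18 (B) and -0.09 (C). With a replicate block, 5 of the genes were called lower (Aspa, Cntn2, Enpp2, Gjc3 and Mbp) and 2 higher, with 928 of all tested genes lower and 510 higher, 6 node genes lower and 1 precursor gene higher. Gas5 A and Gas5 B each correlated best with the GFP library of the same letter, and Gas5 C did not.

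Values that changed sign had not been called in the edgeR analysis of the report, though DESeq2 or the fit with no filter called some of them, and the causes were not tested beyond what each fit is built to do. With the cortical marker score the median log2 fold change was 0.002, and single values were Mbp 0.13, Mobp 0.15, Mal 0.11, Pllp 0.12, Cldn11 0.0231, Tspan2 0.10, Mog 0.23, Nfasc 0.0483, Cnp 0.0756, Ugt8a 0.0147, Fa2h 0.18, Gal3st1 0.13, Qdpr 0.0591, Myrf 0.002, Nkx6-2 -0.24, Gpr37 0.21 and S1pr5 0.0346. Scaled by the summed counts of the genes, which sets their balance to 0 by construction, the values were Pllp 0.0043, Cldn11 0.12, Tspan2 0.0019, Tmem88b 0.0199, Mag 0.0878, Nfasc 0.0558, Gjb1 0.0275, Cnp 0.0884, Ermn 0.21, Ugt8a 0.0256, Fa2h 0.0513, Car2 0.21, Myrf 0.0883, Sox10 0.0929 and Gpr37 0.055. Under upper quartile scaling Ermn had 0.0042. With a library left out, Ermn ranged from -0.0681 to 0.0145 and Car2 from -0.0959 to 0.0181. Depth limits Klk6, which has the fewest counts of the 35 tested genes, and Trf is limited by its shared span.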
